A study of Mus musculus with 16 samples.

Results

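Cish, Socs1, Socs2, Socs3, Pim1, Pim2, Pim3 and Bcl6 are genes known to respond to the transcription factor STAT5. Their 8 rows were taken by gene symbol from the 23279 symbols of the deposited expression table. The rule itself uses no measured value, but the 8 genes were chosen with earlier results of these data known. Expression was measured by polyA RNA sequencing in mouse pre-B cells of 4 genotypes with 4 libraries each, 16 in all. The groups were SHP2 WT (+/+) and SHP2 NULL (-/-) cells labelled BCR-ABL NULL (-/-), called here cells without BCR-ABL1, and SHP2 WT (+/+) and SHP2 NULL (-/-) cells labelled BCR-ABL WT (+/+), called here cells with BCR-ABL1. SHP2 is a tyrosine phosphatase encoded by Ptpn11, and BCR-ABL1 is the fusion tyrosine kinase of chronic myeloid leukaemia and of some B-cell acute leukaemias. The labels give no animal, culture, age, Cre driver or route by which BCR-ABL1 was introduced. The spread between the 4 libraries of a group, on which every p-value rests, may therefore be technical.

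In precursor B cells interleukin-7 binds its receptor, the receptor-bound kinases JAK1 and JAK3 phosphorylate STAT5A and STAT5B, and the paired STAT5 proteins enter the nucleus and bind DNA. BCR-ABL1 also causes phosphorylation of STAT5. Among the genes that STAT5 induces, Cish and the SOCS genes encode SH2-domain proteins that feed back on cytokine receptors and JAK kinases, and the Pim genes encode serine/threonine kinases that favour survival and growth. Bcl6 encodes a transcriptional repressor whose STAT5 relation runs the other way, since active STAT5 is known to repress it in pre-B cells. BCL6 and STAT5 recognise similar DNA sequences.

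The DNA near the start sites was searched for a motif of each factor, and sequence around the matches is shown. The STAT5 palindrome TTCNNNGAA was searched on both strands in windows of 300 bases, from 250 bases before to 50 after each annotated start in RefSeq (build GRCm38.p6). It stood in 2726 of 32851 windows, 8.30%. A table entry was found for 7 of the 8 genes (all but Socs2), with 9 windows, and 4 of these windows, belonging to Cish, Socs3 and Bcl6, held a match. The stricter core TTCCTNGAA of the BCL6 site, which lies within the first motif, stood in 1.59% of all windows and in 1 window each of Cish and Bcl6. The matches are in capitals below, 5′ to 3′ on the gene's own strand.
Cish (chr9:107296649-107296678, plus strand): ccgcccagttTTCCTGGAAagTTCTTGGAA
Socs3 (chr11:117969367-117969616, minus strand): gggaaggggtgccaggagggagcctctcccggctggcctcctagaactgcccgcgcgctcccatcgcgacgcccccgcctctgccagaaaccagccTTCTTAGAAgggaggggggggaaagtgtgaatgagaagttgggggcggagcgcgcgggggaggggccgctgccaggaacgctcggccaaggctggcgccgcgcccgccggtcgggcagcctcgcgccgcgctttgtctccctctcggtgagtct
Bcl6 first start (chr16:23988853-23989102, minus strand): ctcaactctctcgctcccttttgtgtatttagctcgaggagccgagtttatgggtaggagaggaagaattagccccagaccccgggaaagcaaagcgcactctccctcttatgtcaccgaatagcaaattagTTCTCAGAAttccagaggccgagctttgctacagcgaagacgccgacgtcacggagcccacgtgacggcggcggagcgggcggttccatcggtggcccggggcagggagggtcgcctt
Bcl6 second start (chr16:23981284-23981533, minus strand): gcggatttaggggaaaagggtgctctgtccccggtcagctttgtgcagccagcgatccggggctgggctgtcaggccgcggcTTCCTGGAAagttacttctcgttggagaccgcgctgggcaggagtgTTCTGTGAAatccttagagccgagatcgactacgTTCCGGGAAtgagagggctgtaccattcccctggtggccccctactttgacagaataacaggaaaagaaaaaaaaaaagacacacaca

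Cish carried 2 matches, TTCCTGGAA from base 1 to base 9 and TTCTTGGAA from base 12 to base 20 after the RefSeq start. In GENCODE M21 the same bases lie in the first exon of 1 of 2 Cish transcripts, which starts farther upstream. The Socs3 match, TTCTTAGAA, lay at bases -154 to -146 from the start of its window and in no exon of the 1 GENCODE basic transcript. The RefSeq span of the gene reaches farther upstream, to 117970336, so the match, at 117969512 to 117969520, lies inside that span. At its first start Bcl6 had TTCTCAGAA at bases -118 to -110. The second Bcl6 window, inside an intron of the GENCODE basic transcript, held TTCCTGGAA, TTCTGTGAA and TTCCGGGAA. In RefSeq (GRCm38.p6) the protein-coding genes span Cish at chr9:107296659-107302784, Socs1 at chr16:10783808-10785536, Socs2 at chr10:95383903-95417321, Socs3 at chr11:117966079-117970336. The others span Pim1 at chr17:29490785-29496111, Pim2 at chrX:7878306-7883432, Pim3 at chr15:88862194-88865726 and Bcl6 at chr16:23965050-23988866. In the windows of Socs1, Pim1 (2 starts), Pim2 and Pim3 these letters were not found. A match describes letters only, and no binding was measured here.

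The labels were first checked on Ptpn11, whose level was 15.7 to 18.0 FPKM (fragments scaled to transcript length and library size) in the 8 SHP2 WT libraries and 2.87 to 7.43 FPKM in the 8 SHP2 NULL libraries. Ptpn11 was lower by 1.45 ± 0.19 (log2, SE) without BCR-ABL1 (adjusted p = 0.00108) and by 1.73 ± 0.19 with it (adjusted p = 0.000257, both limma). The fall was incomplete, and the labels do not say which exons were removed. The 11 pre-B markers, Cd79a, Vpreb1, Rag1 and others, were present in every group, with a summed level of 1849 to 2493 FPKM per library. Myeloid markers (7 of 7 in the table) summed to 7.87 to 30.8 FPKM in SHP2 WT cells without BCR-ABL1. With BCR-ABL1 they summed to 3.56 to 10.05 FPKM in SHP2 WT and 3.40 to 7.57 FPKM in SHP2 NULL cells. In SHP2 NULL cells without BCR-ABL1 the sum was 420.7 FPKM in replicate 2, where Lyz2, the myeloid lysozyme, reached 402.6 FPKM. The other libraries of that group summed to 7.59 to 37.6 FPKM. Group medians without BCR-ABL1 were 11.2 FPKM (SHP2 WT) and 26.2 FPKM (SHP2 NULL, replicate 2 included). Without replicate 2, myeloid markers were still present in that group, and its Lyz2 difference from SHP2 WT was 0.32 ± 0.58 (limma adjusted p = 0.86). Mast cell markers (5 of 5) summed to 6.70 to 12.0 FPKM in SHP2 WT cells without BCR-ABL1, 0.0286 to 8.18 in SHP2 NULL cells without it, 0.408 to 5.22 in SHP2 WT cells with it and 0.0547 to 1.69 in SHP2 NULL cells with it. T and NK, erythroid and stromal markers summed to at most 2.90, 0.875 and 0.112 FPKM. Values of the 8 genes that moved by over 1.5 times without the library with high Lyz2 are given with and without it, as are Socs3 and Pim1. Calls it changed are given too, for the cell type markers as counts from the main test only.

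Since FPKM is a level per transcript length, the 8 genes can be ranked against each other. Socs2 and Pim1 stood far above the rest, with means over 16 libraries of 149.9 and 92.5 FPKM, higher than 96.8% and 94.3% of the 10210 genes tested. Cish followed at 10.5 FPKM, above 52.1% of tested genes. Pim2 (7.35 FPKM) and Socs3 (6.88 FPKM) came next and could not be ordered, as Pim2 exceeded Socs3 in 7 of 16 libraries. Socs1 (4.88 FPKM) and Pim3 (4.64 FPKM) were likewise not separable, with Socs1 above Pim3 in 9 of 16 libraries. The other neighbours kept their order in 14 to 16 of the 16 libraries. Bcl6 was lowest, with a mean of 0.491 FPKM and a highest value of 0.901 FPKM. It did not reach 1 FPKM in any library, so it missed the filter of 1 FPKM in at least 4 libraries and 7 of the 8 genes entered the main test.

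**Figure D1:**
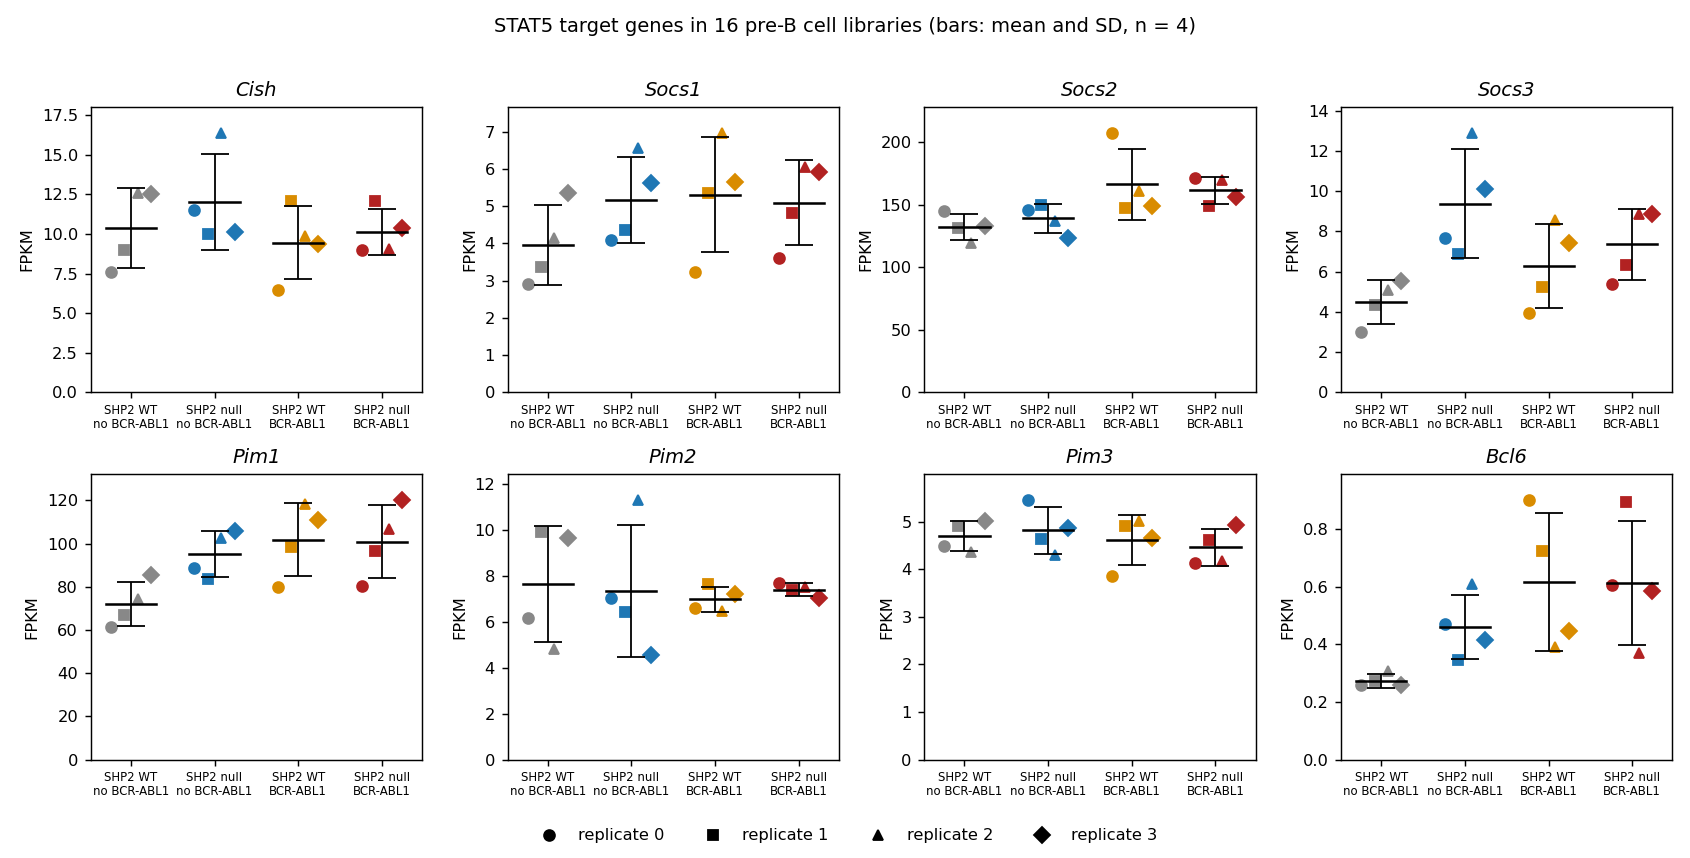
FPKM (y axis, linear, from 0) of each of the 8 genes in the 16 libraries, by group on the x axis. Points are single libraries, horizontal bars are group means and vertical bars are SD (n = 4); Socs3 in cells without BCR-ABL1 is lower in all 4 SHP2 WT libraries (3.0 to 5.52 FPKM) than in all 4 SHP2 NULL libraries (6.89 to 12.9 FPKM), while Pim3 stays between 3.85 and 5.45 FPKM throughout.

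The first question was how loss of SHP2 altered these genes in pre-B cells that lacked BCR-ABL1. Socs3, whose protein inhibits receptors that signal through gp130, and Pim1, the most abundant Pim kinase here, were the genes with the clearest difference, both higher in SHP2 NULL cells. Of the 7 genes tested, 6 had a positive log2 change, with a median of 0.19 against 0.02 over all tested genes, of which 55.9% were positive. None of the 7 passed the test (limma on log2(FPKM + 1), Benjamini-Hochberg adjusted p under 0.05 over all genes), which called 1.54% of genes. At an unadjusted p under 0.05, 2 of the 7 passed against 16.1% of genes. Libraries with the same replicate number deviated together in this comparison at correlations of 0.189 to 0.510, and 3 of 4 numbers correlated best with their own. With the number as a block 2 of the 7, Socs3 and Pim1, passed against 5.75% of all genes. The summed pre-B markers also did not overlap in this comparison, at 1849 to 2068 FPKM in SHP2 WT and 2166 to 2493 FPKM in SHP2 NULL libraries. Of the 3 mast cell markers tested, Cma1 fell (-1.35 ± 0.22, limma adjusted p = 0.00435), Cpa3 was lower (-1.37 ± 0.42, limma adjusted p = 0.127, or 0.0326 with the block) and 1 had a positive difference. Without the high-Lyz2 library 2 of the 3 were called lower, beside 103 of all genes tested. The part of these markers in the result was not tested. In bulk RNA a change in RNA per cell and a change in the share of cells that make it cannot be told apart.

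Socs3 measured 3.0, 4.32, 5.10 and 5.52 FPKM in replicates 0, 1, 2 and 3 of the SHP2 WT cells and 7.67, 6.89, 12.9 and 10.1 FPKM in those of the SHP2 NULL cells. The groups did not overlap, with means of 4.48 ± 1.11 and 9.38 ± 2.70 FPKM (SD, n = 4), a ratio of 2.09. Of the 7 genes it was the 1 without overlap, against 9.09% of all genes tested. On the log2(FPKM + 1) scale, which understates changes of low genes, Socs3 differed by 0.91 ± 0.23 (SE; 95% interval 0.42 to 1.39), with a limma adjusted p of 0.0602. With the block the SE was 0.09 and the limma adjusted p 0.000172, and Socs3 was higher in 4 of 4 same-number pairs, by 0.57 to 1.19. The highest Socs3 value belonged to the library with high Lyz2. Without that library the difference was 0.76 (limma adjusted p = 0.184), and 0.85 ± 0.10 with the block (limma adjusted p = 0.000693). Over all alternatives the difference ranged from 0.76 to 1.04 and its adjusted p from 0.000172 to 0.184.

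Pim1 read 61.4, 67.0, 74.5 and 85.3 FPKM in the SHP2 WT libraries and 88.8, 83.7, 102.7 and 105.6 FPKM in the SHP2 NULL libraries. The groups overlapped by 1 SHP2 NULL library, replicate 1, that lay below the highest SHP2 WT library, while every same-number pair was higher in SHP2 NULL cells. The difference was 0.40 ± 0.14 (limma adjusted p = 0.187), and with the block the SE fell to 0.07 and the limma adjusted p to 0.00611. Leaving out the high-Lyz2 library gave 0.36 (limma adjusted p = 0.370), or 0.40 ± 0.08 with the block (limma adjusted p = 0.0125). Across alternatives the Pim1 difference ran from 0.33 to 0.48, with adjusted p from 0.00611 to 0.370.

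Socs1, which encodes a direct inhibitor of JAK kinases, measured 2.91, 3.37, 4.15 and 5.36 FPKM in SHP2 WT libraries and 4.08, 4.37, 6.57 and 5.62 FPKM in SHP2 NULL libraries. All 4 same-number pairs were higher in SHP2 NULL cells, but the groups overlapped and the difference of 0.32 ± 0.20 did not pass the test (limma adjusted p = 0.456, or 0.0579 with the block). Without the high-Lyz2 library it was 0.22 ± 0.21 (limma adjusted p = 0.740, or 0.15 with the block). Cish, a feedback inhibitor that competes for STAT5 docking sites on receptors, had 7.59, 8.96, 12.6 and 12.5 FPKM against 11.5, 9.98, 16.4 and 10.1 FPKM, with 3 of 4 pairs higher. Its difference was 0.19 ± 0.19 (limma adjusted p = 0.661), and 0.040 ± 0.18 without the high-Lyz2 library (limma adjusted p = 0.948). Socs2, known as a regulator of growth hormone signalling, differed by 0.07 ± 0.11 (limma adjusted p = 0.783), with means of 132.4 ± 10.5 and 139.0 ± 11.5 FPKM. None of these 3 genes passed the test, with or without the block.

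For the other Pim kinases the values of both groups were mixed. Pim2, which shares the kinase fold of Pim1, ranged from 4.82 to 9.91 FPKM in SHP2 WT and from 4.57 to 11.3 FPKM in SHP2 NULL libraries, a wide scatter within both groups. Its difference was -0.06 ± 0.21 (limma adjusted p = 0.912), and -0.27 ± 0.18 without the high-Lyz2 library (limma adjusted p = 0.610). Pim2 was higher in 2 of 4 pairs. Pim3 measured 4.69 ± 0.32 and 4.82 ± 0.49 FPKM, a difference of 0.03 ± 0.08 (limma adjusted p = 0.893; 95% interval -0.15 to 0.20), or 0.072 ± 0.086 without that library. Whether the Pim genes differed from each other in their change was not tested.

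Bcl6 was under 1 FPKM throughout but did not overlap between these groups: 0.258, 0.272, 0.309 and 0.258 FPKM in SHP2 WT libraries and 0.472, 0.345, 0.609 and 0.415 FPKM in SHP2 NULL libraries. In the fit with no filter its difference was 0.19 ± 0.10 on the log2(FPKM + 1) scale (limma adjusted p = 0.465). With 0.1 in place of 1 added before the logarithm it was 0.56 ± 0.25 (limma adjusted p = 0.353). That fit called 1.03% of its 18172 genes, and 6.88% of them did not overlap. The highest Bcl6 value was again in the library with high Lyz2, and without it the difference was 0.15 ± 0.11 (limma adjusted p = 0.730).

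In cells with BCR-ABL1 the question was whether loss of SHP2 altered the same genes in the transformed state. The libraries of SHP2 WT and SHP2 NULL cells overlapped for all 8 genes. The differences lay between -0.04 and 0.22, and 3 of the 7 tested genes had a positive one, against 42.7% of all genes (median -0.01 against -0.02 over all genes). No member passed the limma test, which called 0.313% of genes, none passed at an unadjusted p under 0.05 (3.65% of genes) and none with the block (0.470% of genes). No member was free of overlap, against 3.10% of tested genes.

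Socs3 measured 3.93, 5.24, 8.54 and 7.41 FPKM in SHP2 WT libraries against 5.40, 6.35, 8.86 and 8.85 FPKM in SHP2 NULL libraries. SHP2 NULL was higher in 4 of 4 same-number pairs, yet the groups overlapped, and 2 of 4 numbers correlated best with their own in this comparison. The difference was 0.22 ± 0.23 (95% interval -0.26 to 0.71; limma adjusted p = 0.9998, or 0.564 with the block). It fell to 0.050 without SHP2 WT replicate 0 and reached 0.37 without SHP2 WT replicate 2. Pim1 stood at 79.9, 98.4, 118.3 and 110.7 FPKM against 80.5, 96.4, 106.8 and 120.1 FPKM, a difference of -0.01 ± 0.14 with an interval of -0.32 to 0.29. That interval does not reach the estimate of 0.40 seen without BCR-ABL1, although the latter has an error of its own. Socs1 had 3.24, 5.36, 6.97 and 5.65 FPKM against 3.60, 4.81, 6.05 and 5.92 FPKM, with a difference of -0.03 ± 0.20. Cish read 6.45, 12.1, 9.90 and 9.39 FPKM against 8.99, 12.1, 9.06 and 10.4 FPKM, a difference of 0.11 ± 0.19.

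Socs2 measured 207.6, 147.7, 161.0 and 149.0 FPKM in SHP2 WT libraries and 171.3, 149.0, 170.1 and 156.2 FPKM in SHP2 NULL libraries. Replicate 0 of the SHP2 WT cells stood above the other 15 libraries, and the difference between groups was -0.03 ± 0.11. Pim2 was tight in both groups, at 6.99 ± 0.54 and 7.40 ± 0.29 FPKM, with a difference of 0.07 ± 0.21 under the spread shared by all groups. Pim3 differed by -0.04 ± 0.08 and Bcl6 by 0.00 ± 0.10, with Bcl6 at 0.901, 0.723, 0.391 and 0.447 FPKM against 0.605, 0.893, 0.370 and 0.586 FPKM. With 4 libraries a group, differences of either sign within the 95% intervals were not excluded. These intervals were -0.25 to 0.20 for Socs2, -0.37 to 0.52 for Pim2, -0.21 to 0.14 for Pim3 and -0.22 to 0.22 for Bcl6.

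The difference between the 2 SHP2 effects was tested directly, because a gene past a threshold in one setting and short of it in another need not differ between them. For Socs3 the SHP2 effect with BCR-ABL1 minus that without was -0.69 ± 0.32 (95% interval -1.37 to 0.00063; limma adjusted p = 0.839, or 0.125 with the block). For Pim1 it was -0.41 ± 0.20 (95% interval -0.84 to 0.02; limma adjusted p = 0.839, or 0.206 with the block). For Socs1 the value was -0.35 ± 0.28 (limma adjusted p = 0.898). The test called 0.0% of genes, and 5.79% had an unadjusted p under 0.05, with 0 of the 7 members among them. Leaving out the high-Lyz2 library, it called 1 of all genes tested, with 1 of the 3 mast cell markers called higher. Without the high-Lyz2 library the values were -0.53 ± 0.32 for Socs3, -0.37 ± 0.21 for Pim1 and -0.25 ± 0.29 for Socs1. The dependence of the SHP2 effect on BCR-ABL1 was therefore not shown for any of these genes.

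**Figure D2:**
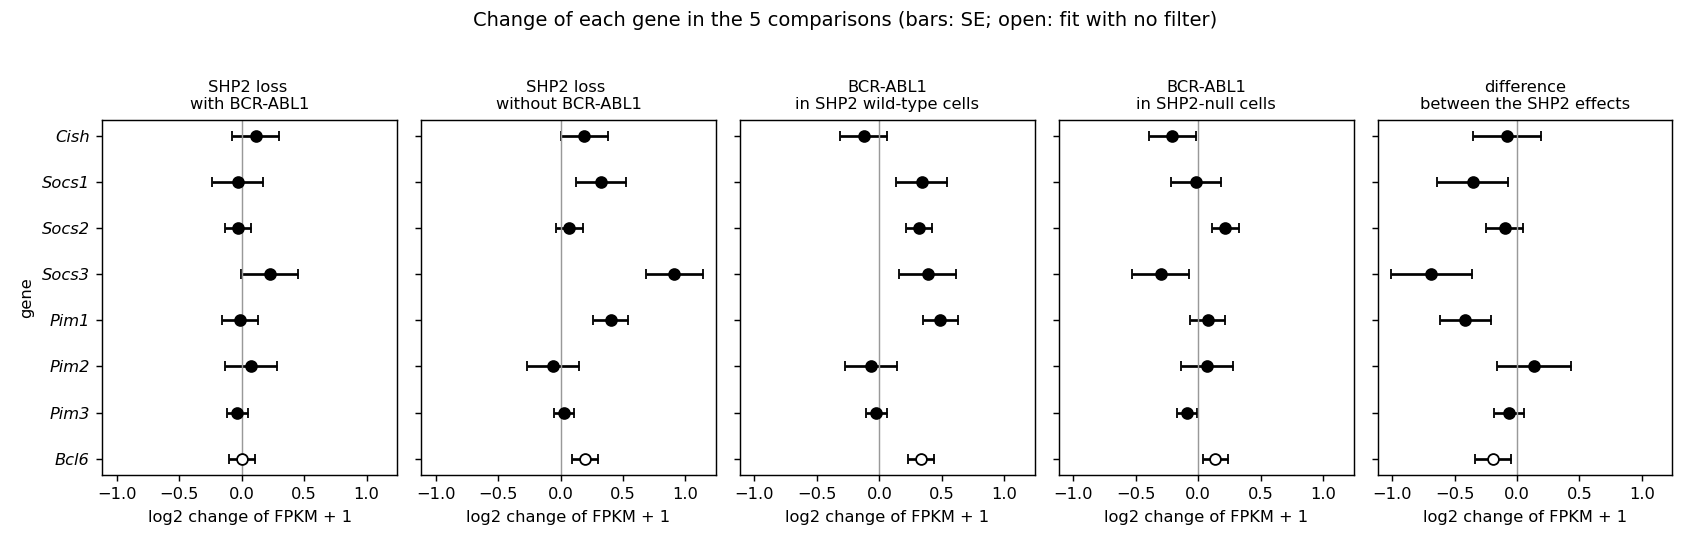
Log2 change of each gene on the log2(FPKM + 1) scale (x axis) in the 4 comparisons and in the difference between the SHP2 effects, with points for the estimate and bars for its SE over the fit to 16 libraries; Bcl6, open, is from the fit with no filter. Socs3 without BCR-ABL1 lies at 0.91 and Pim1 in the SHP2 WT comparison at 0.49, while with BCR-ABL1 the SHP2 differences lie between -0.04 and 0.22.

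**Figure D3:**
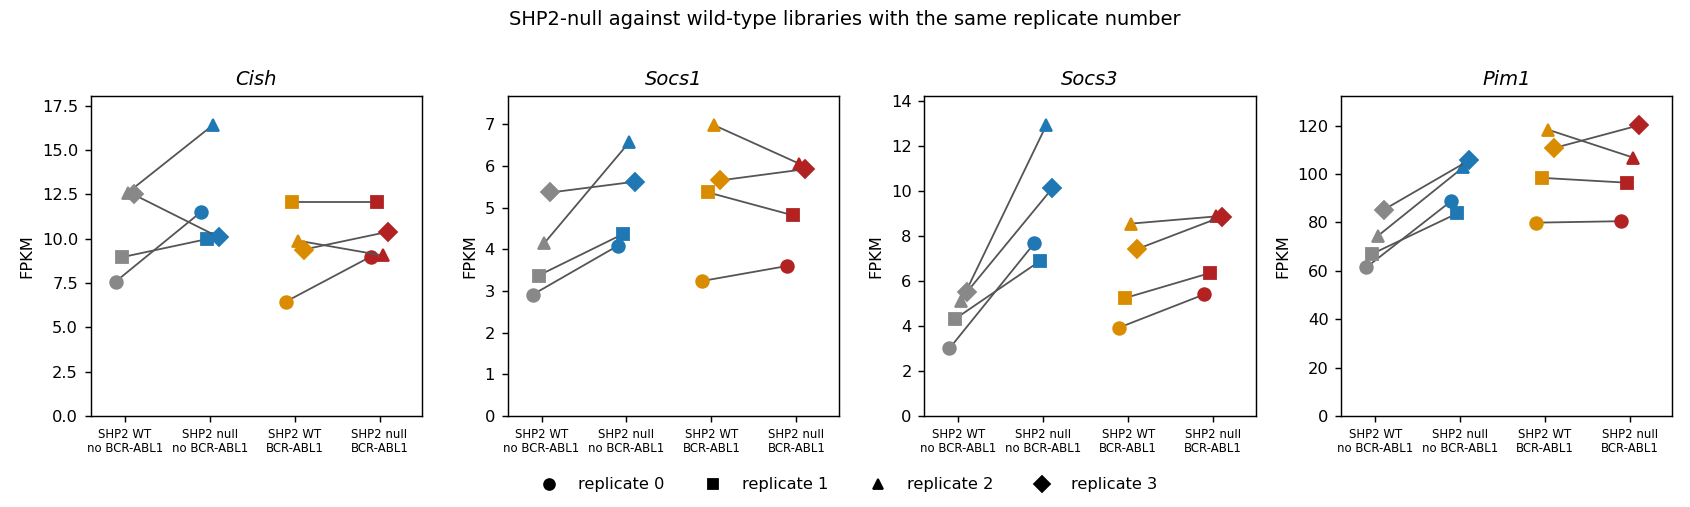
FPKM (y axis, linear, from 0) of Cish, Socs1, Socs3 and Pim1, with lines that join SHP2 WT and SHP2 NULL libraries of the same replicate number. Without BCR-ABL1 all 4 lines of Socs1, Socs3 and Pim1 rise to the SHP2 NULL side; with BCR-ABL1 all 4 lines of Socs3 rise, by less, and those of Pim1 go both ways.

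A further question was what BCR-ABL1 itself did to genes of a pathway that it is known to activate. In SHP2 WT cells 4 of the 7 tested genes had a positive change with BCR-ABL1, as did 59.8% of all genes. Cish, Pim2 and Pim3 had a negative one. The median of 0.32, against 0.04 over all genes, was the value of Socs2, the lowest of the positive ones. None of the 7 passed the limma test, which called 4.67% of genes, and 2 of the 7, Pim1 and Socs2, had an unadjusted p under 0.05, against 19.1% of genes. Cish, often used as the readout of STAT5 activity, had means of 10.4 ± 2.53 FPKM without and 9.46 ± 2.32 FPKM with BCR-ABL1. Its change was -0.13 ± 0.19 (limma adjusted p = 0.791; 95% interval -0.53 to 0.28). Of the 3 mast cell markers tested, Cma1 (limma adjusted p = 8.48e-05) and Cpa3 (limma adjusted p = 0.00817) were lower with BCR-ABL1. The other 1 was higher, at an unadjusted limma p under 0.05. The part of these markers in the changes was not tested.

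Pim1 had the largest change of the 7, from 72.1 ± 10.3 to 101.8 ± 16.8 FPKM. That was 0.49 ± 0.14 (limma adjusted p = 0.0637), and 1 BCR-ABL1 library, replicate 0 at 79.9 FPKM, lay under the highest library without it. Without that replicate 0 the change was 0.60 (limma adjusted p = 0.0362), and under quantile normalization 0.45 (limma adjusted p = 0.0306). The adjusted p ranged from 0.000735 to 0.172 over all alternatives. Socs2 did not overlap, at 119.7 to 145.3 FPKM without and 147.7 to 207.6 FPKM with BCR-ABL1. Its change was 0.32 ± 0.11 (limma adjusted p = 0.106), and 0.21 without the library at 207.6 FPKM. Of the 7 genes it was the 1 free of overlap, near the background of 11.7% of all tested genes.

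Socs1 (3.95 ± 1.07 to 5.31 ± 1.55 FPKM) and Socs3 (4.48 ± 1.11 to 6.28 ± 2.08 FPKM) had higher means with BCR-ABL1. Their changes were 0.34 ± 0.20 (limma adjusted p = 0.395) and 0.39 ± 0.23 (limma adjusted p = 0.392), and their groups overlapped. Pim2 and Pim3 had changes of -0.07 ± 0.21 and -0.03 ± 0.08. Bcl6, the repressor, was higher in all 4 BCR-ABL1 libraries (0.391 to 0.901 FPKM) than in the 4 without (0.258 to 0.309 FPKM). Its change was 0.33 ± 0.10 in the fit with no filter (limma adjusted p = 0.113) and 0.88 ± 0.25 with 0.1 added (limma adjusted p = 0.0770). That fit called 3.12% of genes, and 9.75% did not overlap.

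In SHP2 NULL cells the change with BCR-ABL1 was tested next, with the same SHP2 NULL libraries as the comparison without BCR-ABL1. Here 3 of the 7 tested genes had a positive change, against 47.6% of all genes, with a median of -0.02 against -0.01 over all genes. None passed the limma test (1.26% of genes called), none had an unadjusted p under 0.05 (13.5% of genes), none passed with the block (5.27% of genes) and none was free of overlap (7.07% of genes). Socs3 went from 9.38 ± 2.70 to 7.37 ± 1.76 FPKM and was lower with BCR-ABL1 in 4 of 4 same-number pairs, a change of -0.30 ± 0.23 (limma adjusted p = 0.612, or 0.0724 with the block). Without the high-Lyz2 library it was -0.15 ± 0.23 (limma adjusted p = 0.808, or 0.129 with the block). Lyz2 itself was lower with BCR-ABL1 here without overlap, by -3.05 ± 0.91 (limma adjusted p = 0.141, or 0.0122 with the block). Without the high-Lyz2 library 1 of the 11 pre-B markers was called higher and 1 lower, against 0 with it. That setting called 176 of all genes tested. Pim1 had a change of 0.08 ± 0.14, from 95.2 ± 10.6 to 100.9 ± 16.7 FPKM, and 0.11 ± 0.16 without that library. For Socs2 it was 0.22 ± 0.11 (limma adjusted p = 0.387), from 139.0 ± 11.5 to 161.7 ± 10.9 FPKM. Cish, from 12.0 ± 3.03 to 10.1 ± 1.47 FPKM, had -0.21 ± 0.19, and -0.056 ± 0.18 without that library. Socs1 had -0.02 ± 0.20, and 0.089 ± 0.21 without it. Pim2 had 0.07 ± 0.21, and 0.28 ± 0.18 without it, while Pim3 had -0.09 ± 0.08. Bcl6 had 0.14 ± 0.10, with 0.345 to 0.609 FPKM without and 0.370 to 0.893 FPKM with BCR-ABL1.

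Across the 4 groups, the SHP2 WT cells without BCR-ABL1 had the lowest mean of Socs1, Socs2, Socs3, Pim1 and Bcl6. The means of the 3 other groups lay between 95.2 and 101.8 FPKM for Pim1 and between 5.10 and 5.31 FPKM for Socs1, closer together than the SD within a group. For Socs3 the 3 other means were 6.28, 7.37 and 9.38 FPKM. Comparisons that share a group share its libraries, so this order is one description and not several.

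Within groups Cish, Socs1, Socs3 and Pim1 were often lowest in the same library. Replicate 0 had the lowest Socs1 in 4 of 4 groups and the lowest Cish, Socs3 and Pim1 in 3 of 4. Replicates 2 and 3 lay above their own group's mean for Socs1, Socs3 and Pim1 in 4 of 4 groups. On the log2(FPKM + 1) scale Socs3 deviated from its group mean by -0.38 on average in replicate 0 and by 0.33 in replicate 2. Socs2 ran the other way, with replicate 0 above its group mean in 4 of 4 groups and the highest of its group in 3. Pim2 shared neither pattern, above its group mean in 2 of 4 groups for each replicate number. Replicate 0 lay above its group mean in 1 of 4 groups for Pim3 and in 3 of 4 for Bcl6. Socs1 and Socs3 peaked in the same library in 4 of 4 groups, and Cish, Socs3 and Pim1 had their lowest value in the same library in 4 of 4. The share of all genes with such patterns was not counted. The protocol states that libraries were loaded in sets holding 1 of each genotype, but the labels do not say that the replicate number marks such a set, and its part in these deviations was not tested.

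By the root mean square difference of centred log2(FPKM + 1) values over the 16 libraries, the profile of Socs1 was near that of Pim1 (0.13, the third nearest gene). This is a description over libraries of different genotypes, and the labels do not say which of them were loaded as a set. The part of genotype or of such sets in these profiles was not tested. The 2 genes nearest to Socs1 were Emilin1 (0.12) and Nudt22 (0.13), against 0.31 for the spread of Socs1 about its own mean. For Pim1 (spread 0.27) the nearest were Ndufaf3, H2-Q1 and Psmb9 (each 0.11), of which H2-Q1 belongs to a gene family whose reads may be shared. Socs3 had the largest spread, 0.45, and its nearest genes, Pgf (0.20), Csrnp1 (0.21) and Litaf (0.21), were farther off. Cish (spread 0.28) was nearest to Fam65a (0.11), Bahcc1 (0.13) and Ahdc1 (0.15). Socs2 (0.19) was nearest to Arpc5l, Pigh and Zfp62 (0.06 to 0.07), and Pim2 (0.29) to Trio, Cln3 and Tmbim1 (0.18 to 0.19). Pim3, the steadiest gene with a spread of 0.10, was nearest to Arfip2 (0.04), Srf and Dolpp1 (0.06 each).

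Upstream of these genes, the 14 genes of the IL-7 receptor, JAK and STAT list were all tested. Without BCR-ABL1, 1 of the 14 rose with SHP2 loss and 0 fell, against 1.02% of all genes higher and 0.519% lower. With the block 5 of the 14 passed, against 5.75% of genes. Il7r, the receptor's own chain, rose from 6.29 ± 0.75 to 11.9 ± 2.58 FPKM (0.81 ± 0.12, limma adjusted p = 0.00249). Without the high-Lyz2 library its difference was 0.68 ± 0.10 (limma adjusted p = 0.00310). The other 4 genes, named here after their values were seen, passed only with the block. Stat5a went from 7.39 ± 0.67 to 9.60 ± 0.41 FPKM, a difference of 0.34 ± 0.08 (limma adjusted p = 0.0564, or 0.0169 with the block). Stat5b went from 9.29 ± 1.05 to 11.8 ± 1.13 FPKM, a difference of 0.32 ± 0.09 (limma adjusted p = 0.0973, or 0.0407 with the block). Jak1 and Stat4 were lower, by -0.24 ± 0.09 (limma adjusted p = 0.208, or 0.0334 with the block) and -0.68 ± 0.27 (limma adjusted p = 0.238, or 0.00612 with the block). With the block and without the high-Lyz2 library, Il7r rose and Jak1 and Stat4 fell, while Stat5a (0.29 ± 0.07, limma adjusted p = 0.0553) and Stat5b (0.23 ± 0.07, limma adjusted p = 0.116) did not pass. That setting called 304 of the 10210 genes tested. With BCR-ABL1, SHP2 loss called 0 of the 14, with 0 at an unadjusted p under 0.05 and 0 with the block, and Il7r measured 25.3 ± 3.09 and 25.0 ± 1.76 FPKM.

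BCR-ABL1 was accompanied by higher Il7r in both backgrounds, by 1.85 ± 0.12 in SHP2 WT cells (limma adjusted p = 1.18e-06) and by 1.03 ± 0.12 in SHP2 NULL cells (limma adjusted p = 0.00118). Jak1, the kinase on that chain, fell in SHP2 WT cells from 29.6 ± 2.57 to 22.5 ± 2.02 FPKM (-0.38 ± 0.09, limma adjusted p = 0.0230). Thus 1 of 14 rose and 1 fell in SHP2 WT cells, where 2.95% of all genes were higher and 1.72% lower. In SHP2 NULL cells 1 rose and 0 fell, where 0.578% of genes were higher and 0.686% lower. Beside these receptor levels, with group means from 6.29 to 25.3 FPKM, the group means of Cish lay between 9.46 and 12.0 FPKM. Whether the 2 genes differ in their response was not tested.

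The other lists moved little by the same test. Of the other SOCS family genes, Socs4 to Socs7, 0 of 4 passed in any of the comparisons, with or without the block. The share of all genes called was 0.0% to 4.67% without the block and 0.0% to 12.1% with it. For SHP2 loss without BCR-ABL1, 1 of the 4, Socs5, had an unadjusted p under 0.05, against 16.1% of all genes. Of 10 other STAT5-responsive genes 8 were tested, with 0 called in each comparison by limma and 2, 2 and 1 at an unadjusted p under 0.05 for SHP2 loss without BCR-ABL1, for BCR-ABL1 in SHP2 WT cells and for BCR-ABL1 on the SHP2 NULL background, where 16.1%, 19.1% and 13.5% of all genes did. With the block 1 of them, Bcl2l1, which encodes the survival protein BCL-XL, passed for SHP2 loss without BCR-ABL1 (10.7 ± 4.65 to 16.8 ± 5.15 FPKM; 0.65 ± 0.27, limma adjusted p = 0.252, or 0.0207 with the block). Without the high-Lyz2 library the blocked adjusted p of Bcl2l1 was 0.0656. Of 12 genes known to be repressed by BCL6, 11 were tested and 1, the CDK inhibitor gene Cdkn1b, rose with BCR-ABL1 in SHP2 WT cells, from 10.1 ± 0.39 to 12.3 ± 0.64 FPKM (0.26 ± 0.07, limma adjusted p = 0.0412), where 2.95% of all genes were higher. In the other comparisons 0 of the 11 passed, with 1 at an unadjusted p under 0.05 for SHP2 loss with BCR-ABL1, 3 without it and 3 for BCR-ABL1 in SHP2 NULL cells, beside 3.65%, 16.1% and 13.5% of all genes. With the block, Cdkn1b also passed in SHP2 NULL cells (0.25 ± 0.07, limma adjusted p = 0.0998, or 0.0455 with the block). Leaving out the high-Lyz2 library, which took the genes called in that comparison from 129 to 176, Cdkn1b (0.31 ± 0.07, limma adjusted p = 0.0309) and the activation marker gene Cd69 (0.65 ± 0.10, limma adjusted p = 0.00508) passed without the block. With the block and without that library, BCR-ABL1 in SHP2 NULL cells also called Stat2 (0.29 ± 0.07), Stat4 (-0.41 ± 0.08), Il2ra (0.82 ± 0.22), Ccnd3 (-0.43 ± 0.11) and Cdkn2a (-0.73 ± 0.13), with limma adjusted p between 0.00939 and 0.0463. These genes were named after their values were seen. The share of all genes called in that setting is not given here, so these calls cannot be set against it. The block with all libraries called 5.27% of genes in this comparison.

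Of 10 other inhibitors of cytokine receptor signalling, 0 passed by limma in any comparison, and 5 of the 10 had an unadjusted p under 0.05 for SHP2 loss without BCR-ABL1, against 16.1% of genes. With the block 4 passed in that comparison, against 5.75% of genes, all higher in SHP2 NULL cells: the phosphatase gene Ptpn1 (0.34 ± 0.09, limma adjusted p = 0.0157), the STAT inhibitor genes Pias3 (0.39 ± 0.10, limma adjusted p = 0.00612) and Pias4 (0.35 ± 0.10, limma adjusted p = 0.0257), and Sh2b3 (0.27 ± 0.10, limma adjusted p = 0.0204), which encodes the adaptor LNK. Each SE given is that of the fit without the block, in which their adjusted p lay between 0.0826 and 0.190. With the block and without the high-Lyz2 library, 1 of the 10 passed, Pias3 (0.33 ± 0.07, limma adjusted p = 0.0168), beside 304 of the 10210 genes tested. With BCR-ABL1 present, SHP2 loss called 0 of the 10 with or without the block, and 0 had an unadjusted p under 0.05. For BCR-ABL1 in SHP2 NULL cells 2 of the 10 passed with the block, against 5.27% of genes, Ptprc (0.25 ± 0.08, limma adjusted p = 0.0400) and Sh2b3 (-0.27 ± 0.10, limma adjusted p = 0.0206). Without the high-Lyz2 library the blocked adjusted p was 0.0611 for Ptprc and 0.0373 for Sh2b3.

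Pim1 lies on chromosome 17 (29490785 to 29496111, GRCm38.p6), where other genes were seen to differ with SHP2 status, so its neighbours were read beside it. The 5 nearest tested genes on each side lay within 725 kb. Without BCR-ABL1 all 10 had a positive SHP2 difference, against 55.9% of all genes. Their median was 0.10 and their range 0.03 (BC004004) to 0.31 (Cpne5), against 0.40 for Pim1 and a median of 0.02 over all genes. By limma 0 of the 10 were called, against 1.54% of genes, and 1, Ccdc167, did not overlap between groups, against 9.09%. With BCR-ABL1, 6 of the 10 were positive, against 42.7% of all genes, with a median of 0.02 and a range of -0.17 to 0.18. Whether the position of Pim1 bears on its level was not tested.

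**Figure D4:**
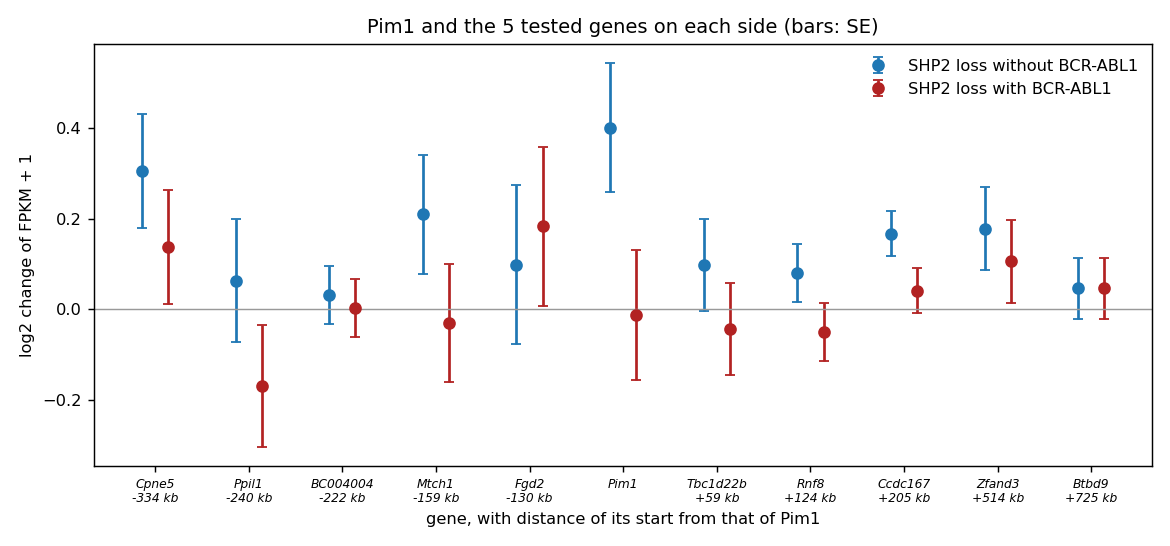
SHP2 difference (log2, y axis) of Pim1 and the 5 tested genes on each side of it on chromosome 17, in chromosome order with the distance from Pim1 printed in kb (x axis, not to scale), without and with BCR-ABL1; bars are SE. Without BCR-ABL1 all 10 neighbours lie between 0.03 and 0.31 and Pim1 at 0.40; with it the neighbours lie between -0.17 and 0.18 and Pim1 at -0.01.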

How the data were processed

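PolyA RNA of 16 mouse pre-B cell libraries was sequenced with a stranded kit as paired ends, per the labels' protocols. The authors deposited FPKM per gene; Bowtie, Cufflinks and the builds mm10 and GRCm38 are named in the submitters' processing notes, and no version, annotation or strand setting was given in the sources used here. Without counts the sequencing depth is unknown. Spacing of low values gave relative depths that differed up to 1.60-fold between libraries, and summed FPKM was 348923 to 443702 per library. The series table was equal to all 16 library files. Its 23758 entries gave 23279 symbols after FPKM of 254 repeated symbols (733 entries, none of the 8 genes) were summed.

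The 10210 genes that reached 1 FPKM in 4 or more of the 16 libraries were tested on log2(FPKM + 1) with limma 3.58.1 (trended prior variance, R 4.3.3), 1 fit of 4 group means with no covariate, two-sided, Benjamini-Hochberg over all genes tested, called at an adjusted p under 0.05. The 5 tests were SHP2 loss with and without BCR-ABL1, BCR-ABL1 in SHP2 WT and in SHP2 NULL cells, and the difference between the SHP2 effects. Bcl6 was read from a fit of 18172 genes with no filter. The script was tested on simulated data. Figures and summaries used Python 3.11.15.

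The 8 genes and all lists were chosen with earlier results of these data known. Named genes were the 8, Ptpn11, called genes of each list (at most 4 per comparison), the 3 nearest profiles of each tested member and 5 tested genes on each side of Pim1. Replicate numbers come from the sample titles. Deviations from group means correlated between same-numbered libraries at 0.218 to 0.783 (SHP2 loss with BCR-ABL1), 0.189 to 0.510 (SHP2 loss without) and 0.242 to 0.680 (BCR-ABL1 in SHP2 NULL cells), over 0.1 in every pair, so blocked values are given for these. In that order, 2 of 4, 3 of 4 and 4 of 4 numbers correlated best with their own. For SHP2 loss with and without BCR-ABL1, number 2 correlated better with another number, at 0.822 against 0.338 and 0.538 against 0.189. For BCR-ABL1 in SHP2 WT cells the same-number correlations ran from 0.0549 to 0.643, not over 0.1 in every pair. The block is therefore given for that comparison only as an alternative. Alternatives were a pseudocount of 0.1, median-ratio scaling, quantile normalization, no filter, a mean of at least 5 FPKM, only the groups compared, the block, and each library left out. Leaving out the high-Lyz2 library together with the block, and for the gene lists, was chosen after seeing the data. Start sites and promoter sequences are from RefSeq (GRCm38.p6).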

Additional observations from a re-analysis of the deposited data

How the results depend on the processing

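No member was called in any comparison as first fitted. Genes called numbered 32 for SHP2 loss in cells with BCR-ABL1, 157 in cells without it, 477 for BCR-ABL1 on the SHP2 WT background, 129 on the SHP2 NULL background and 0 for the difference between SHP2 effects. With the replicate block, 587 genes and 2 members were called for SHP2 loss without BCR-ABL1, 1231 genes (12.1%) and 4 members (Socs1, Socs2, Socs3 and Pim1, adjusted p = 0.0319, 0.0284, 0.0164 and 0.000735) for BCR-ABL1 in SHP2 WT cells and 538 genes for BCR-ABL1 in SHP2 NULL cells. Same-numbered libraries of the SHP2 WT comparison correlated at 0.0549 to 0.643, and 2 of 4 numbers correlated best with their own. In the other comparisons the block changed no other member's call. The block without replicate 2 of SHP2 NULL cells without BCR-ABL1, an alternative chosen after seeing the data, gave 304 genes and 2 members for SHP2 loss. A mean of at least 5 FPKM, which drops Socs1 and Pim3, gave 11, 70, 186 and 33 genes in the first 4 comparisons. Only the groups compared gave 34 (SHP2 loss without BCR-ABL1) and 30 (BCR-ABL1 in SHP2 NULL cells), and no filter gave 3 for the difference. Quantile normalization called 1 member, Pim1, for BCR-ABL1 in SHP2 WT cells, and turned the sign of SHP2 differences near 0, with BCR-ABL1 to 0.050 for Socs2, 0.084 for Pim1 and -0.026 for Bcl6, and without it to -0.018 for Pim3. The cause of these shifts was not tested.

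With each library left out in turn, genes called ranged from 20 to 35 for SHP2 loss with BCR-ABL1 (lowest without SHP2 WT replicate 3), from 80 to 164 without it and from 235 to 636 for BCR-ABL1 in SHP2 WT cells (both lowest without SHP2 WT without BCR-ABL1 replicate 2). The range was 49 to 176 for BCR-ABL1 in SHP2 NULL cells (lowest without SHP2 NULL with BCR-ABL1 replicate 2) and 0 to 1 for the difference. Members called ranged from 0 to 1 for SHP2 loss without BCR-ABL1 (Socs3, adjusted p = 0.0474) and from 0 to 1 for BCR-ABL1 in SHP2 WT cells (Pim1), both without replicate 0 of SHP2 WT cells with BCR-ABL1. Uncalled values changed sign: for SHP2 loss with BCR-ABL1, Cish ran from -0.042 to 0.23, Socs1 from -0.21 to 0.096, Socs2 from -0.081 to 0.082, Pim1 from -0.12 to 0.090 and Bcl6 from -0.080 to 0.082. For SHP2 loss without it, Pim2 ran from -0.27 to 0.11 and Pim3 from -0.023 to 0.072. For BCR-ABL1 in SHP2 WT cells, Cish ran from -0.25 to 0.027, Pim2 from -0.24 to 0.062 and Pim3 from -0.061 to 0.043. For BCR-ABL1 in SHP2 NULL cells, Socs1 ran from -0.10 to 0.11, Pim1 from -0.013 to 0.18 and Pim2 from -0.11 to 0.28. For the difference, Cish ran from -0.23 to 0.071, Socs2 from -0.15 to 0.012 and Pim2 from -0.039 to 0.34. Without counts, no floor can be given for Bcl6.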
